A study of Oncorhynchus mykiss with 42 samples.

Results

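Among the spotted cDNA clones measured in rainbow trout testis, 61 of 8175 had a higher mean value with either pituitary gonadotropin than without hormone at both stages of testis development studied. A clone was kept where all 4 differences of group means, FSH minus Ctrl and LH minus Ctrl at stage III and at stage I-II, were at least 0.3 on the log2 scale of the deposited table. The clones were thus selected on these 4 measured differences, so they are given as a description and not as a test. Clones are given by ID, because 0 of the 8175 IDs occur in the gene table available here, and no gene name, function or sequence is attached to any of them.

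Follicle-stimulating hormone (FSH) and luteinizing hormone (LH) are glycoprotein hormones of the pituitary. They act through G-protein-coupled receptors that raise cyclic AMP in the somatic cells of the testis. In the vertebrate testis FSH acts mainly on Sertoli cells, which nurse the germ cells, and LH mainly on Leydig cells, which make androgens. In salmonid fish both hormones can stimulate steroid production, and FSH is the main circulating gonadotropin early in spermatogenesis.

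Testis pieces from an all-male trout population were spread at random on membrane inserts and kept for 96 h at 12 °C, with the medium changed at 48 h. The cultured groups were FSH (500 ng/mL of purified salmonid FSH), LH (500 ng/mL of purified salmonid LH) and Ctrl (no hormone), each with 6 arrays at stage III and 6 at stage I-II. Uncultured testis (T0) had 3 arrays per stage, which makes 42 arrays in 8 groups. Each array was a nylon membrane hybridised with radiolabelled cDNA from 5 µg of total RNA. FSH and LH were each given at a single dose, and every cultured group shared the same medium and the same serum substitute. The labels do not tie arrays to fish, so stage and fish cannot be told apart, and p-values measure the spread between these samples, which may be technical. Fragments hold germ cells and somatic cells together, and in such bulk samples fewer cells of a type and less RNA per cell cannot be told apart. The tissue label could not be checked against cell type markers, since the clones carry no gene names. The deposited log2 table had column medians of 7.15 to 7.17, and the scanner's median signal lay between 85 and 170 intensity units on the arrays. The number of arrays limits the precision. Control positions of the membrane were inferred, since no source used here names them. The 128 brighter control positions of the membrane gave 577 ± 484 intensity units on T0 arrays and 120 ± 25.2 on Ctrl arrays of stage III (median over the positions of an array, mean ± SD over 3 and 6 arrays). At stage I-II they gave 730 ± 206 units on T0 arrays and 285 ± 69.9 on Ctrl arrays. With FSH and LH they gave 199 ± 25.3 and 124 ± 18.4 units at stage I-II, and 127 ± 21.9 and 131 ± 31.5 at stage III. Each comparison was also fitted with this control signal as a covariate. The result is given where it changed the call of a named clone or changed a count of called clones strongly. Smaller changes in a count are not all given.

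The selected clones spanned a wide range of responses. The mean of the 4 hormone differences had a median of 0.66 over the clones, and ranged between 0.37 and 3.09. It was at least 1 for 10 clones, between 0.5 and 1 for 38 and under 0.5 for 13. The first 2 clones stood far above the others, since the third had a mean of 1.38. At the edge of the selection, the lowest of the 4 differences was 0.30, 0.302 and 0.303 for the 3 clones just inside, and 0.29, 0.287 and 0.282 for the 3 just outside. A threshold of 0.5 kept 25 clones and a threshold of 1 kept 2, while 0.2 admitted 115. In the opposite direction, 36 clones were lower by at least 0.3 in all 4 comparisons.

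Clone tcbk0013.j.13 had the greatest mean of the 4 differences. At stage III its log2 values were 8.88, 9.15 and 9.33 in FSH testis (lowest, median and highest of 6 arrays), 9.20, 9.46 and 10.01 in LH testis, and 6.12, 6.42 and 7.0 in Ctrl testis. At stage I-II they were 10.46, 10.64 and 11.30 with FSH, 10.28, 10.88 and 11.01 with LH, and 7.03, 7.38 and 7.81 in Ctrl. Every hormone array lay above every Ctrl array of its stage, by more than the whole range within any group. The differences were 2.66 for FSH and 3.02 for LH at stage III, or 6.31-fold and 8.12-fold. At stage I-II they were 3.33 for FSH and 3.36 for LH, or 10.1-fold and 10.2-fold. Before culture the clone had 6.44, 6.24 and 6.64 on the 3 T0 arrays of stage III and 5.59, 6.17 and 5.25 on those of stage I-II. It exceeded the background, taken from 64 dim control positions of the array, on every FSH and LH array, on 3 of 6 Ctrl arrays of stage III and on none of the 3 T0 arrays of stage I-II.

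Clone 1rt34l03_b_f02 was the second. At stage III its log2 values were 8.75, 9.40 and 9.75 in FSH testis, 8.80, 9.11 and 9.23 in LH testis, and 5.94, 6.34 and 6.54 in Ctrl testis. At stage I-II they were 10.29, 10.43 and 11.01 with FSH, 9.90, 10.23 and 10.70 with LH, and 6.66, 6.86 and 8.93 in Ctrl. The hormone arrays again lay above all Ctrl arrays of their stage, although 1 Ctrl array of stage I-II, replicate 19, stood apart from the other 5. The differences were 3.00 for FSH and 2.75 for LH at stage III, or 8.0-fold and 6.71-fold, and 3.34 for FSH and 3.04 for LH at stage I-II, or 10.1-fold and 8.24-fold. The clone was above background on 3 of 6 Ctrl arrays of stage III, so the stage III folds may be understated, and on all other cultured arrays. Without replicate 19 the Ctrl mean was 6.82 ± 0.10 (SD, n = 5) in place of 7.17 ± 0.87, and the stage I-II differences were 3.69 for FSH and 3.40 for LH. The T0 values were 5.68, 6.08 and 6.14 at stage III, none of them above background, and 7.21, 7.55 and 6.89 at stage I-II, all 3 above background.

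**Figure D1:**
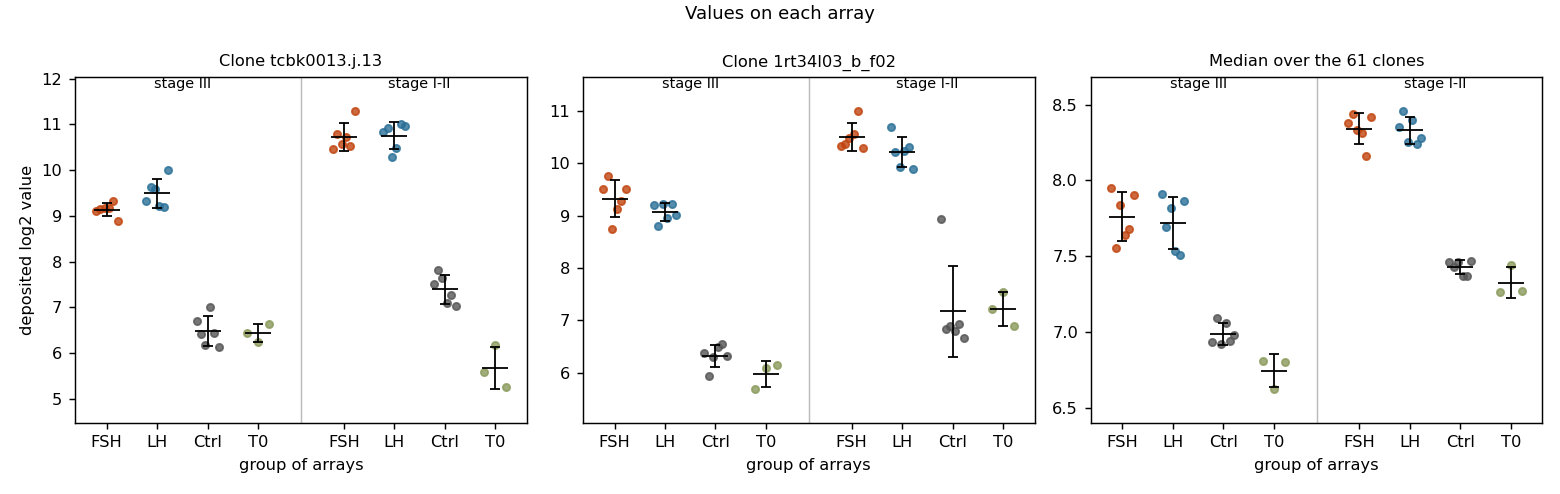
Deposited log2 values on each of the 42 arrays for clones tcbk0013.j.13 and 1rt34l03_b_f02 and for the median over the 61 clones, with 1 point per array and black bars for the group mean and SD. FSH and LH arrays sit above Ctrl and T0 arrays at both stages, and the single high Ctrl point of 1rt34l03_b_f02 is replicate 19 at 8.93.

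The median over the 61 clones gives the common course. At stage III it was 7.76 ± 0.16 on FSH arrays, 7.72 ± 0.17 on LH arrays, 6.99 ± 0.07 on Ctrl arrays and 6.74 ± 0.11 on T0 arrays (SD, n = 6 each and 3 for T0). At stage I-II it was 8.34 ± 0.10 with FSH, 8.33 ± 0.09 with LH, 7.43 ± 0.05 in Ctrl and 7.32 ± 0.10 at T0. By construction the hormone arrays lay higher, and the groups with and without hormone did not overlap: the lowest FSH or LH array of stage III was at 7.51 and the highest Ctrl array at 7.09. In level, the same 61 clones ranged at stage III between 5.78 and 12.24 (group means) with FSH and between 5.05 and 11.76 in Ctrl, so that dim and bright spots were both among them. Of the 61, 36 exceeded background on all 36 cultured arrays. No filter on low values was applied in the selection. At stage III 3 clones had no FSH array above background, 3 had no LH array above it and 11 had no Ctrl array above it. At stage I-II these counts were 0 with FSH, 1 with LH and 10 in Ctrl. Where only Ctrl had no array above background, the fold has a lower bound, which did not always reach 1. It was 0.77 for LH in tcay0008.j.18 at stage III. Clones tcbk0013.j.22, 1rt88a22_c_a11 and tcay0013.p.02 had no FSH, LH or Ctrl array of stage III above background. Their stage III folds have no bound. In tcba0020.g.18 at stage I-II, LH was the group with no array above background.

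The 4 differences varied in size. Their median was 0.59 for FSH and 0.61 for LH at stage III, and 0.77 for FSH and 0.70 for LH at stage I-II. Over all 8175 clones the 4 medians lay between -0.01 and 0.02. The greatest of a clone's 4 differences was FSH at stage I-II for 26 clones, LH at stage I-II for 20, FSH at stage III for 8 and LH at stage III for 7. Within a clone, the greatest and the smallest of the 4 differed by 0.33 (median), with a range of 0.04 to 1.37.

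**Figure D2:**
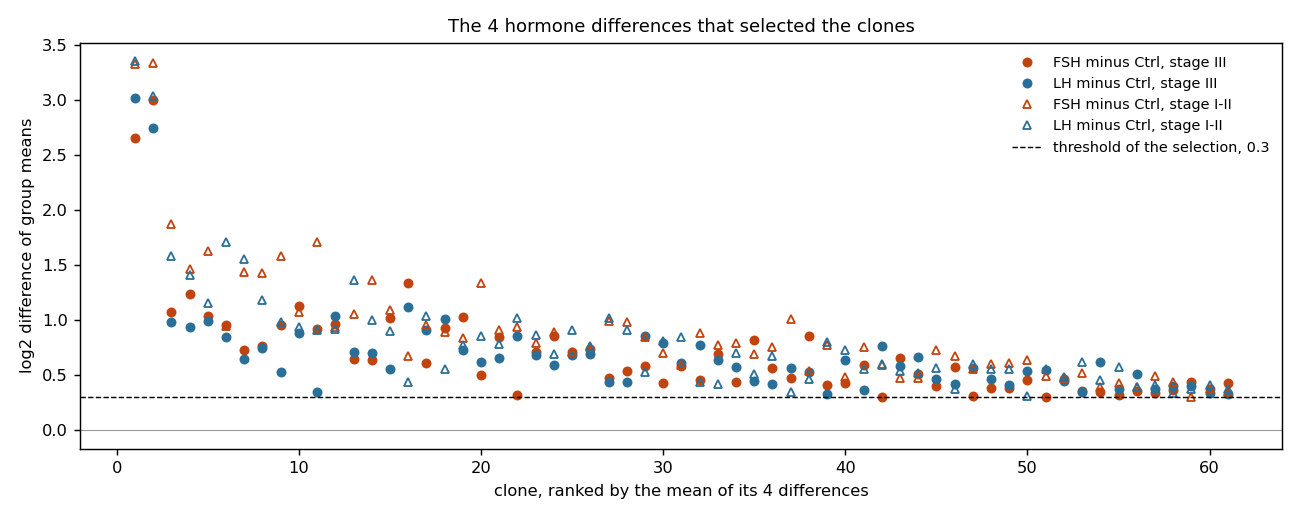
The 4 log2 differences of group means for each of the 61 clones, ranked by their mean, with filled circles for stage III, open triangles for stage I-II, one colour per hormone and a dashed line at the selection threshold of 0.3. The first 2 clones lie between 2.66 and 3.36, the third has a mean of 1.38, and the rest decline gradually to the threshold.

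The difference between the stages in these responses is computed from the values that selected the clones, so it is given as a description and nothing is read from its signs or its calls. Stage III minus stage I-II, the FSH response had a median of -0.17 over the 61 clones and was below 0 for 48 of them. The LH response had a median of -0.10 and was below 0 for 44. Over all 8175 clones the medians were 0.01 for FSH and -0.02 for LH. As an interaction in limma, over all clones, the Benjamini-Hochberg adjusted p was under 0.05 for 0 clones with either hormone, a background of 0% each. At an unadjusted p under 0.05, 14 of the 61 clones passed for FSH, beside 3.89% of all clones, and 11 passed for LH, beside 6.81%. With scanner signals centred on the median, 4 clones passed the adjusted threshold for FSH: 1rt113l09_b_f05, 1rt43e11_a_c06, 1rt83h14_d_d07 and tcad0007.d.07, named after their values were seen, with interactions between -0.84 and -0.76.

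Counts of called clones in the hormone comparisons restate the selection, and nothing is read from them. At stage III, limma called 31 of the 61 clones higher with FSH, where 0.771% of all clones were called higher, and 30 higher with LH, where the background was 0.44%. At stage I-II it called 48 higher with FSH (background 1.11%) and 43 higher with LH (background 1.66%). The LH comparison at stage III called 15 of the 61 when only the 2 groups compared entered the fit. The LH comparison at stage I-II called 26 with the control spot level as a covariate. In all 4 comparisons together 19 clones were called, which are all those of the table (0.232%). A further 18 were called in 3 comparisons (0.245% of all clones), 7 in 2 (0.355%), 8 in 1 (1.61%) and 9 in none (97.6%). Before adjustment, the limma p was under 0.05 for 57 of the 61 with FSH and 61 with LH at stage III. Over all clones the shares were 8.06% and 9.65%. At stage I-II that p was under 0.05 for 60 with either hormone, beside 8.04% of all clones for FSH and 18.9% for LH. These p-values restate the selection as well.

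FSH and LH were set against each other in the same clones. The FSH and LH arrays entered the selection, and the demand that both hormones reach 0.3 removed clones moved by one hormone alone. The differences between the hormones are therefore a description, and their size, intervals and calls do not show that the hormones act alike. FSH minus LH had a median of 0.02 at stage III, with a range of -0.54 to 0.58, and of 0.05 at stage I-II, with a range of -0.77 to 0.80. The hormones differed by less than 0.3 in 49 clones at stage III and in 47 at stage I-II. The 95% interval of a difference had a median half-width of 0.30 and reached 0.73. All 61 intervals lay within 1 log2 unit of 0 at stage III, and 59 did at stage I-II. Within 0.5 log2 units of 0 lay 37 intervals at stage III and 41 at stage I-II, and for the others the interval reached beyond a difference of that size. Limma called 0 of the 61 at stage III, where 0.183% of all clones were called, and 1 of the 61 at stage I-II, where 0.0612% were called. At an unadjusted p under 0.05, 12 of the 61 passed at each stage, beside 11.1% of all clones at stage III and 12% at stage I-II.

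The clone called was 1rt83h14_d_d07, whose FSH and LH values also entered the selection. At stage I-II its log2 values were 7.51, 8.15 and 8.42 in FSH testis (lowest, median and highest), 7.16, 7.25 and 7.60 in LH testis, and 6.07, 6.41 and 6.7 in Ctrl testis. The FSH and LH arrays overlapped only in that the lowest FSH value lay below the highest LH value, and both groups lay above all Ctrl arrays. FSH exceeded LH by 0.80, or 1.74-fold, with a 95% interval of 0.50 to 1.09. At stage III the values were 7.10, 7.24 and 7.55 with FSH and 6.08, 6.79 and 7.04 with LH, which did not overlap. The difference there was 0.58, with an interval of 0.28 to 0.88, and it was not called. The stage I-II call was lost in a fit of the 2 groups alone, with the control spot level as a covariate, and without FSH replicate 26, FSH replicate 30, LH replicate 31 or LH replicate 32, at differences of 0.73 to 0.80. Control positions gave 199 ± 25.3 units on FSH arrays and 124 ± 18.4 on LH arrays of stage I-II (SD, n = 6 each). The spot touches another over 4 times brighter, 1rt115j05_b_e03, whose own mean of the 4 hormone differences was 0.0059. That mean does not show whether FSH and LH differed in the neighbour.

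Neither of the first 2 clones was called between the hormones. For tcbk0013.j.13, FSH minus LH was -0.37 at stage III, with a 95% interval of -0.70 to -0.03. At stage I-II it was -0.02, with an interval of -0.36 to 0.31. For 1rt34l03_b_f02 it was 0.25 at stage III, with an interval of -0.19 to 0.70, and 0.29 at stage I-II, with an interval of -0.15 to 0.74. The intervals of 1rt34l03_b_f02 are wider than the median half-width of 0.30, so a moderate difference between the hormones may go unseen there.

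**Figure D3:**
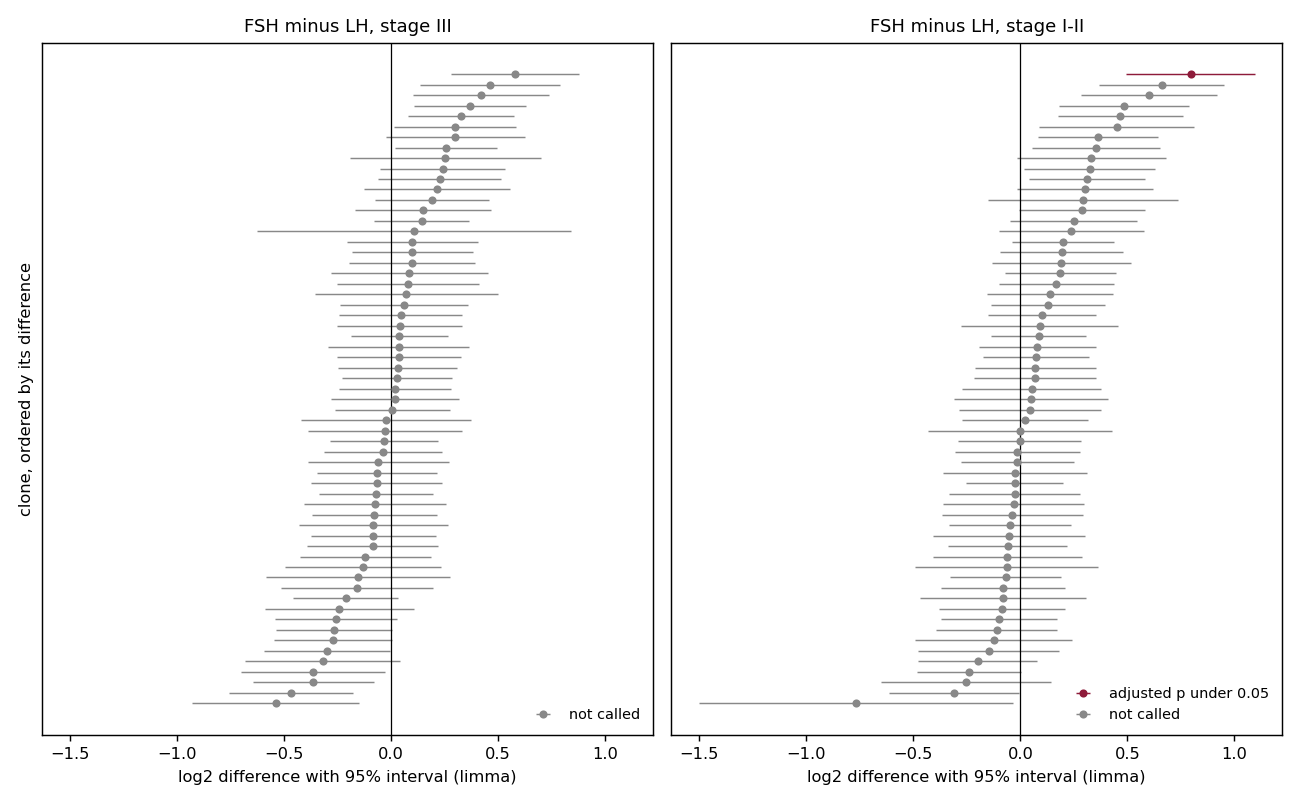
FSH minus LH for each of the 61 clones at stage III and at stage I-II, ordered by size within each panel, as log2 differences with 95% intervals from limma. Points scatter around 0 between -0.77 and 0.80, and the only clone called, at the upper end of the stage I-II panel, is 1rt83h14_d_d07.

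The T0 arrays did not enter the selection, so the stage difference in uncultured testis is independent of it. Most of the 61 clones were lower in stage III testis than in stage I-II testis before any culture. Limma called 32 of them lower (52.5%) and 1 higher, where 12% of all clones were called lower and 11.6% higher. The median difference, stage III minus stage I-II, was -0.64 over the 61 clones and -0.01 over all clones, and 52 of the 61 were below 0. All 3 stage III arrays lay below all 3 stage I-II arrays for 35 of the 61 clones, beside 18.4% of all clones, and above them for 2, beside 18.9%. The called falls ran between -1.68 and -0.50, and 14 of them were at least 1 log2 unit, a fold of 2 or more. Standard errors ran between 0.16 and 0.52. Of the 28 clones not called, 20 were also below 0, and their differences lay between -0.85 and 0.49.

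The greatest falls at stage III were in tcbk0036.f.21 and tcay0021.b.07. Clone tcbk0036.f.21 had T0 values of 7.72, 7.16 and 7.63 at stage III and of 8.93, 9.31 and 9.31 at stage I-II. The difference was -1.68 ± 0.20 (SE), or 3.20-fold lower at stage III, with a limma adjusted p of 7.9e-09. This spot touches another over 4 times brighter, tcbk0036.h.07, which had a stage difference of -1.61 on the scanner scale. Clone tcay0021.b.07 had 9.85, 9.53 and 9.83 at stage III and 11.50, 11.34 and 11.37 at stage I-II. The difference was -1.67 ± 0.20 (SE), or 3.17-fold lower, with a limma adjusted p of 9.4e-09, and none of the spots touching it was brighter than the clone itself. In both clones the gap between the stages was wider than the range of the arrays within either stage.

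Both leading clones of the hormone response also differed between the stages before culture, in opposite directions. Clone 1rt34l03_b_f02 was lower at stage III by 1.25 ± 0.31 (SE) in log2 value, with a limma adjusted p of 0.0022. No stage III array was above background, so that it was at least 1.49-fold lower. Clone tcbk0013.j.13 was the only 1 of the 61 called higher at stage III, at 0.77 ± 0.24 (SE) with a limma adjusted p of 0.0132. No stage I-II array and 2 of 3 stage III arrays were above background, so that on group means it was at least 1.11-fold higher. That call was lost with the control spot level as a covariate (0.60, limma adjusted p = 0.0674), without T0 stage I-II replicate 3 (0.56, 0.123) and without T0 stage III replicate 6 (0.67, 0.0716).

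Dim spots and bright neighbours touch these T0 counts in part. Of the 32 clones called lower, 21 were above background on every T0 array, and 7 had no stage III array above it. Among the 7 were 1rt38n14_d_g07 and tcbk0014.e.22, which had no T0 array of stage I-II above background either. Their falls are between signals not above background and have no fold bound. Of the 38 clones that do not touch a spot over 4 times brighter, 19 were called lower and 1 higher. One T0 stage III array, replicate 5, had a control signal of 1126 units, against 210 and 396 on the other 2 arrays of its group, and 28 clones were called lower and 1 higher without it. With the control spot level as a covariate, 31 were called lower and 0 higher. Replicate 2 of the T0 stage I-II arrays set the difference of 2 clones, singled out after their values were seen. It was at 10.37 in 1rt139f21_b_c11 and at 7.68 in 1rt38n14_d_g07, where the other 2 arrays of its group lay at or below 9.12 and 5.87. On scanner values it was at 8.94 and 5.78, against 9.005 to 9.03 and 5.56 to 5.79 on the others. Both clones were called lower at stage III, by -0.78 and -0.83, and without that array the differences were -0.31 and -0.18. Without it over the whole table, 26 of the 61 were called lower and 2 higher. For the counts in the 38 clones and in the alternative fits, the share over all clones was not computed, and nothing is read from them.

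**Figure D4:**
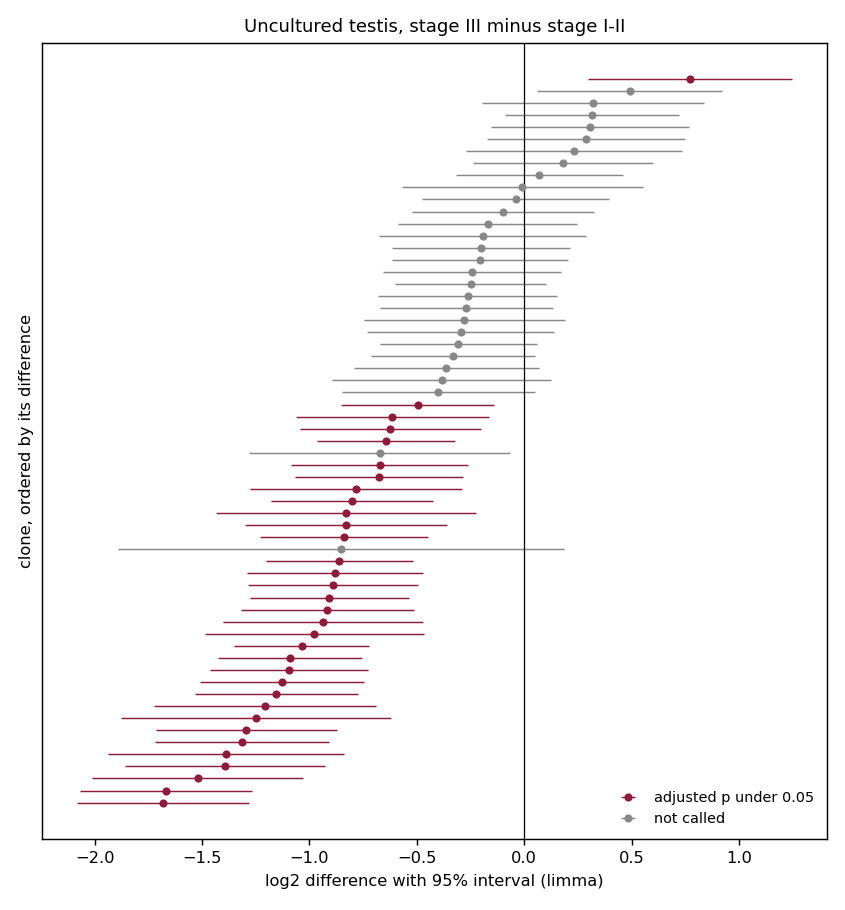
Stage III minus stage I-II in uncultured testis for each of the 61 clones, ordered by size, as log2 differences with 95% intervals from limma on 3 arrays per stage. The 32 clones called lower lie between -1.68 and -0.50, and the only clone called higher is tcbk0013.j.13 at 0.77.

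Hormone-free culture moved the clones in different directions. The Ctrl arrays entered the selection as the low side, so these values are a description with no test. At stage III, Ctrl minus T0 had a median of 0.07 and a range of -1.02 to 3.89 over the 61 clones. Limma called 18 higher and 9 lower in Ctrl than at T0, where 16.2% and 16.8% of all clones were called. At stage I-II the median was -0.20 and the range -1.94 to 3.35, with 15 called higher and 24 lower, where 14% and 13.6% of all clones were called. In some of the 61, such as tcbk0014.e.22 at stage III and tcay0008.j.18 at stage I-II, no Ctrl and no T0 array was above background. Their differences there have no fold bound. Over both stages, 11 clones were called higher at both (9.5% of all clones), 9 lower at both (6.32%), 4 in opposite directions (0.379%) and 19 at neither. Of the rest, 11 were called lower at stage I-II only, 4 higher at stage I-II only and 3 higher at stage III only. With the control spot level as a covariate, the stage III counts were 9 higher and 8 lower. The share over all clones was not computed for the counts at 1 stage only, for the 19 at neither or for that fit. Nothing is read from those counts.

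The greatest rises in culture were far larger than the hormone differences of the same clones. Clone tcac0003.a.02 was at 10.82 ± 0.28 (SD, n = 6) in Ctrl testis of stage III, against 6.94, 6.58 and 7.27 at T0, a difference of 3.89 or 14.8-fold. At stage I-II it was at 10.99 ± 0.32 in Ctrl testis, against 7.7, 7.93 and 8.09 at T0, or 8.45-fold. With hormone it reached 11.27 ± 0.23 (FSH) and 11.59 ± 0.32 (LH) at stage III, so most of its level was present in culture without hormone. Clone tcaa0002.k.19, the brightest of the 61 in Ctrl testis, was at 11.76 ± 0.30 in Ctrl testis of stage III against 8.96, 8.99 and 9.48 at T0, or 6.15-fold. Clone tcad0008.j.15 was at 10.58 ± 0.18 in Ctrl testis of stage I-II, against 7.16, 7.19 and 7.33 at T0, or 10.2-fold. These 3 clones were above background on every array.

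Other clones were lower in Ctrl than at T0. Of the 24 called lower at stage I-II, the FSH mean lay below the T0 mean in 16 and the LH mean in 19, and above it in the others. Clone tcbk0036.f.21 was at 7.95 ± 0.25 with FSH, 8.06 ± 0.09 with LH and 7.24 ± 0.23 in Ctrl at stage I-II (SD, n = 6 each), against 8.93, 9.31 and 9.31 at T0. Its Ctrl value was 3.84-fold below T0, and neither hormone group reached a T0 array. Clone 1rt94c01_a_b01 was at 9.22 ± 0.35 with FSH, 9.30 ± 0.20 with LH and 8.29 ± 0.37 in Ctrl at stage I-II, against 10.31, 10.06 and 10.25 at T0, with Ctrl 3.79-fold below T0. That spot touches 1rt65f10_d_c05, which is 4.79 log2 units brighter and had a Ctrl minus T0 difference of -1.81 at stage I-II on the scanner scale. At stage III, tcad0007.n.03 was at 9.13 ± 0.34 in Ctrl testis against 10.03, 10.25 and 10.16 at T0, and 1rt97f04_d_c02 was at 8.07 ± 0.44 against 8.87, 9.0 and 9.37, 2.03-fold and 2.02-fold below T0. Clone tcad0007.n.03 also touches a spot over 4 times brighter.

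The 4 clones called in opposite directions at the stages were 1rt139f21_b_c11, tcad0004.l.04, tcay0021.b.07 and tcbk0030.h.13, named after their values were seen. Each was higher in Ctrl than at T0 at stage III, by 0.63, 0.50, 0.86 and 0.69, and lower at stage I-II, by differences of -0.66, -0.55, -0.90 and -0.49. In tcbk0030.h.13 only 1 of the 3 T0 arrays of stage III was above background. The -0.66 of 1rt139f21_b_c11 rests on 1 array: its T0 values at stage I-II were 9.12, 10.37 and 8.79, the difference was -0.19 without the 10.37 of replicate 2, and it was -0.18 on scanner values, where that array did not stand apart. In tcay0021.b.07 the Ctrl means of the stages lay within 1 SD of each other, at 10.59 ± 0.27 at stage III and 10.51 ± 0.22 at stage I-II (SD, n = 6 each), where the T0 arrays of the stages did not overlap.

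The place of the hormone groups against uncultured testis is a description, since the selection set every hormone mean above Ctrl. It also favours means above T0, and the share over all clones was not computed. Nothing is read from the counts that follow. At stage III the mean was above both Ctrl and T0 for 53 clones with FSH and 54 with LH, and between Ctrl and T0 for the other 8 and 7. At stage I-II it was above both for 44 clones with FSH and 42 with LH, and between them for 17 and 19. Of the 9 clones called lower in culture at both stages, 8 were also called lower at stage III before culture, and the median T0 stage difference of the 9 was -1.04. Of the 11 called higher at both, 5 were, with a median of -0.40. The T0 arrays enter both kinds of difference, so they are given side by side and not as a relation.

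**Figure D5:**
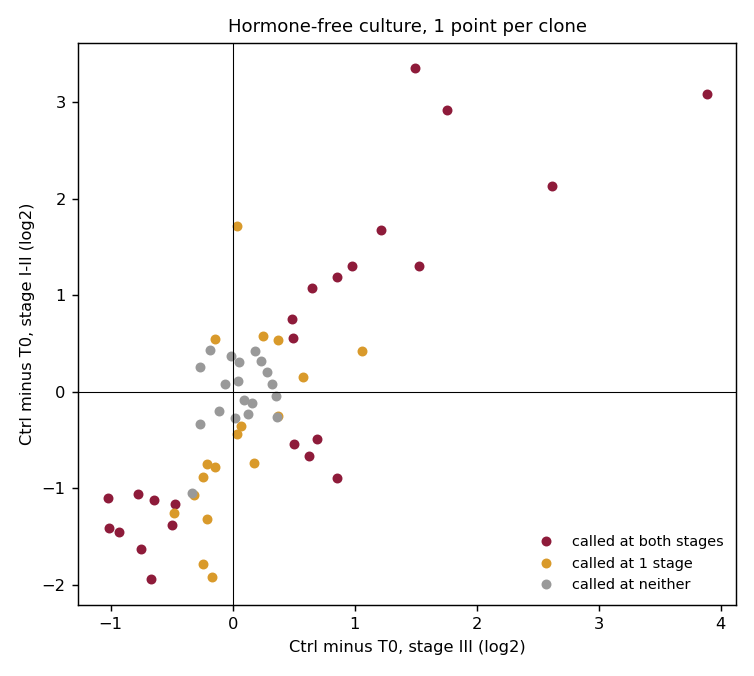
Ctrl minus T0 at stage III (horizontal axis) and at stage I-II (vertical axis) for the 61 clones, as log2 differences, with 1 point per clone coloured by whether limma called it at both stages, at 1 stage or at neither. The points with large rises, up to 3.89 at stage III and 3.35 at stage I-II, lie apart from the main cloud, and 4 called clones lie in the lower right corner.

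The clones most like tcbk0013.j.13 in profile were 1rt34l03_b_f02 and 1rt38l12_d_f06, with Pearson correlations of 0.93 and 0.92 over the 42 arrays. Group differences carry these values: within groups, after subtracting group means, the correlations were 0.12 and -0.13. Clone 1rt38l12_d_f06 had group means of 6.58 ± 0.18 with FSH, 6.48 ± 0.40 with LH and 5.50 ± 0.19 in Ctrl at stage III, and 7.44 ± 0.21 with FSH, 7.16 ± 0.17 with LH and 5.57 ± 0.25 in Ctrl at stage I-II (SD, n = 6 each). It was not above background on any Ctrl array, so it was at least 2.08-fold higher with FSH and at least 1.56-fold higher with LH at stage I-II. At stage III it was above background on 4 of 6 FSH arrays and 3 of 6 LH arrays, and at least 1.10-fold higher with FSH. With LH the bound at stage III did not reach 1, so no fold is given.

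Single arrays carried part of the value in some clones. In 7 of the 61, an array lay at least 1 log2 unit from the median of its group of 6, and these were singled out after their values were seen. In tcba0028.m.20 the LH array of stage I-II replicate 34 was at 10.84, while the other 5 lay between 6.29 and 7.28, and the scanner value of that array was likewise high at 10.86. Without it the LH mean was 6.81 ± 0.44 (SD, n = 5), and every difference of the clone still reached 0.85, against Ctrl spots of which none was above background. In tcac0005.l.02 the FSH array of stage III replicate 63 was at 9.52, while the other 5 lay between 7.87 and 8.22. Without it the lowest of the 4 differences was 0.17, below the selection threshold. The same held for 1rt139e08_c_c04, whose LH array of stage III replicate 67 was at 8.59 against 7.04 to 7.95 on the others, and whose lowest difference without it was 0.28.

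The place of the clones on the membrane was read from the scanner files by matching profiles. For 59 of the 61 the assigned spot was also the nearest in profile, and the correlation of table and scanner values over arrays had a median of 0.96, with a lowest value of 0.70. Scanner values come from the same arrays, and each spot was chosen for its likeness to the deposited values of the clone. The correlation and the scanner differences are thus largely alike by construction and are no check of the selection. On scanner values all 61 clones were positive in all 4 hormone differences, and 51 reached 0.3 in all 4. A spot over 4 times brighter touched 23 of them (37.7%), beside 54.2% of all clone positions, and in 8 of these 23 the brightest touching spot itself had a mean of the 4 differences of at least 0.3. Another member of the selection touched 12 clones. The median over the spots touching a clone that were not selected had a median of 0.079 over the 61, and was above 0 for 49 of them. Single clone positions had a median of -0.004, which is a different measure. The median over touching spots was not computed for all positions, so nothing is read from these values. Clone tcbk0013.j.22, singled out after its values were seen, touches the 2.83 log2 units brighter tcbk0013.j.13 and had a mean of the 4 differences of 1.09. It was above background on all 6 FSH arrays and 5 of 6 LH arrays of stage I-II, and on no FSH or LH array of stage III and no Ctrl array, so its stage III differences are between signals not above background. Within groups its correlation with that clone was 0.61. By their assigned spots, clones 1rt65g08_c_d04 and 1rt94c01_a_b01 both touch 1rt65f10_d_c05, whose mean of the 4 differences was 0.76. The place of 1rt65g08_c_d04 is less sure, since another spot was slightly nearer to it in profile. The part of signal from neighbouring spots in these values was not tested.

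By the start of their IDs, 21 of the 61 clones were of the 1rt series (34.4%, beside 34.7% of all clones) and 12 of the tcbk series (19.7%, beside 23.1%). The tcad series gave 10 (16.4%, beside 5.37%), the tcac series 5 (8.20%, beside 3.12%) and the tcaa series 3 (4.92%, beside 1.21%), while tcay gave 5 (8.20%, beside 17.0%) and tcba 3 (4.92%, beside 10.2%). The sources used here do not say what distinguishes these series.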

How the data were processed

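Messenger RNA of trout testis was measured on 42 nylon arrays with 1 channel each. The authors deposited log2 values in 1 table covering all arrays, and the sources used here do not state how it was normalized. Its 9216 rows held values for 8175 clones. Per the file headers, the authors also deposited AGScan exports with linear spot intensity, without local background. The log2 table was used because it names clones and the selection is defined on it. No source used here names the control positions, and 192 were inferred. This rests on the numbers of water (64) and cvu03687 (128) control rows and on the 64 blocks of the array. A first matching over all positions had placed 14 clones on them. Background limits and control signals depend on this inference. Each of the 8175 clones was assigned to 1 of the other 9024 scanner spots by matching profiles over the arrays after quantile normalization. The remaining spots have no clone. For 94.6% of clones the assigned spot was also the nearest one, and their spread is small partly by construction.

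A linear model with 8 group means was fitted to all clones in limma 3.58.1 (R 4.3.3) with empirical Bayes moderation. Two-sided p-values were adjusted by Benjamini-Hochberg within each comparison over 8175 clones, with 0.05 as the threshold for a call. Every adjusted p printed comes from limma. The script was tested on simulated data. The background limit of an array was the median over 64 dim control positions plus 3 scaled median absolute deviations (52.0 to 140 intensity units, exceeded by 58.0% to 76.7% of positions). A fold given as at least a value compares the mean of the bright group with that of the dim group. Each dim array's value was first raised to the lowest signal over the limit there where it was below that. Such a bound takes no account of the spread between arrays. A touching spot is 1 of the 8 around it.

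The members, lists and tests were chosen with earlier results of these data known. The rule for naming clones took the 2 with the greatest mean of the hormone differences, for each other comparison the 2 greatest rises and falls among those called, and the 2 most like the first clone. Gene lists and cell type markers could not be applied, because 0 clone IDs occur in the gene table of assembly USDA_OmykA_1.1. Alternatives covered scanner signals, cyclic loess, moderation, array weights, level filters, the groups compared alone, export column order and leaving out each array. A further 3 were added after seeing the data: the control spot level as a covariate, leaving out the 3 arrays of another export order, and leaving out clones beside far brighter spots.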

Additional observations from a re-analysis of the deposited data

Results flagged for a closer look

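Single arrays stood apart in 7 of 78 groups of values of named clones and of the median over clones, where chance gives about 1 in 20. Clone 1rt34l03_b_f02 had 8.93 on Ctrl stage I-II replicate 19, against 6.66 to 6.92 on the other 5 arrays. The scanner value of that array was 6.90, within the 6.46 to 6.94 of the others, so the deposited table and the scanner file differ there. Clone 1rt83h14_d_d07 had 5.71 on Ctrl stage III replicate 55, against 6.32 to 6.62. Clone tcad0008.j.15 had 11.6 on LH stage I-II replicate 33, against 10.7 to 11.01, and a scanner value of 11.02. Clone tcaa0002.k.19 had 11.65 on FSH stage III replicate 65, against 12.2 to 12.5. Clone tcad0007.n.03 had 9.76 on Ctrl stage III replicate 60, against 8.86 to 9.17, and 11.38 on LH stage I-II replicate 31, against 10.87 to 11.04. Clone 1rt97f04_d_c02 had 7.9 on FSH stage III replicate 64, against 8.36 to 8.62.

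The 128 brighter control positions entered the comparisons only as a covariate in an alternative fit. They carried more signal on T0 than on Ctrl arrays, by 4.81-fold at stage III and 2.56-fold at stage I-II. The cultured groups of stage I-II differed too, with means of 285 units on Ctrl, 199 on FSH and 124 on LH arrays. There the Ctrl arrays (231.5 to 420) and the LH arrays (103.5 to 148) did not overlap. At stage III the means were 120, 127 and 131. The cause was not tested.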

How the results depend on the processing

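No paired analysis was possible because the groups compared share no replicate numbers. No comparison of a named clone changed direction under any alternative. Of their values, 421 stayed on their side of the threshold and 11 lost the call, all for 1rt83h14_d_d07 (FSH minus LH) and tcbk0013.j.13 (T0). The named clones were picked for large or called differences, some of which made the selection. Several alternatives, such as a stricter threshold or another moderation, leave the difference itself unchanged. This tally is thus largely fixed in advance and is a description only. The counts below are of the 61 clones called, and the share over all clones was not computed for these settings. Leaving out the clones beside far brighter spots gave 29 for FSH minus Ctrl, 26 for LH minus Ctrl, 0 for FSH minus LH and 23 for Ctrl minus T0 (12 higher, 11 lower), all at stage I-II, and 20 for T0 stage III minus stage I-II, where fewer clones are counted by construction. The control spot level as a covariate gave 26 for LH minus Ctrl and 0 for FSH minus LH at stage I-II, and 17 for Ctrl minus T0 at stage III. The groups compared alone gave 15 for LH minus Ctrl at stage III and 0 for FSH minus LH at stage I-II. For FSH minus LH at stage I-II, an adjusted p under 0.01 gave 0, scanner signals 3 with quantile normalization and 3 with median centring, and 2 came from each of cyclic loess, trended and robust moderation, array weights, export order as a covariate and leaving out the 3 arrays of another export order. The additional clones were tcad0009.m.08 and 1rt139f21_b_c11 with scanner signals and tcaa0002.k.19 otherwise. With clones above the median level only, 1rt83h14_d_d07 did not enter the fit, because its own level was below that median. The clone called at stage I-II in that fit was tcaa0002.k.19, at 0.66. FSH minus LH at stage III gave 1 with either scanner setting, 1rt83h14_d_d07 at 0.48 and 0.47. The FSH interaction with stage gave 4 with median-centred scanner signals. For these settings the cause was not tested.

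The selection itself held 115 clones at a threshold of 0.2 and 25 at 0.5. It held 62 on scanner values, of which 51 were shared, 58 after cyclic loess, all shared, and 66 without the 3 arrays of another export order, 57 shared. Leaving out 1 array at a time gave 53 to 65 clones, the fewest without Ctrl stage III replicate 55. It gave 29 to 34 calls for FSH minus Ctrl at stage III and 41 to 49 at stage I-II, and 25 to 32 for LH minus Ctrl at stage III and 37 to 43 at stage I-II. FSH minus LH gave 0 to 0 at stage III and 0 to 2 at stage I-II, both interactions 0 to 0, T0 28 to 31, and Ctrl minus T0 21 to 26 at stage III and 34 to 38 at stage I-II. At the level of single clones, dim Ctrl and T0 spots limit the folds to lower bounds. Some bounds did not reach 1, and there is none where both groups compared were dim.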
